A study of Homo sapiens with 4 samples.

Results

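The genes described are NRF2 (gene symbol NFE2L2), its inhibitor KEAP1 and 7 enzyme genes that NRF2 is known to induce: NQO1, HMOX1, GCLC, GCLM, TXNRD1, SRXN1 and GSR. They were chosen by function, with earlier results of these data known. All probes annotated to a member and to no other gene were used, 10 probes for 9 of the 19090 genes named on the array. Human cells of the liver tumour line HepG2, by their label, received 1 of 4 RNA duplexes by transfection and were measured on 1-colour (Cy5) OneArray Plus chips. The NC group received a negative control duplex with no match in the human genome, the miR-214 mimic group a mimic of that microRNA, and the siPVT1-1 and siPVT1-2 groups each 1 small interfering RNA against the long noncoding RNA PVT1. The same transfection reagent, INTERFERin, was used for all 4, and no untransfected cells were analysed here. The sources used here give neither the dose nor the time between transfection and harvest. Each group was 1 array, so no difference has a replicate check or a p-value, and all 3 differences from NC share the 1 NC array. With so few arrays the precision of each value is limited.

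NRF2 is a transcription factor that KEAP1 holds in the cytoplasm and delivers for degradation. Oxidants and electrophiles modify KEAP1, NRF2 then builds up in the nucleus with a small MAF partner, and the pair binds antioxidant response elements near genes that make glutathione, reduce thioredoxin and supply NADPH. Because this control acts on the NRF2 protein, the NFE2L2 transcript does not by itself report NRF2 activity. In liver the pathway is known for detoxifying drugs and reactive metabolites, and it is often active in liver tumours.

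The mature strands of miR-214 are shown because the mimic is 1 of the agents compared; the sources used here do not say which strand it carries. They are RefSeq sequences on GRCh38.p14, minus strand, with the seed (bases 2 to 8) in capitals, at chr1:172138816-172138837 for the 3p and chr1:172138857-172138878 for the 5p strand.
hsa-miR-214-3p: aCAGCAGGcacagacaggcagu
hsa-miR-214-5p: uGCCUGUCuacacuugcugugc

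Upstream sequences of the members were searched for the element through which NRF2 acts, so that the genes can be read beside it. RefSeq promoter windows of 300 bases (250 before and 50 after an annotated start, GRCh38.p14) were used for 7 of the 9 genes, 10 windows in all; HMOX1 and GSR were not analysed here. The core TGACNNNGC, on either strand, was present in 4 of the 10 windows, those of GCLM, of KEAP1 (1 of its 2 windows) and of TXNRD1 (both windows). It was present in 13.3% of all 35116 windows. The stricter form TGACTCAGC was in 0 of the 10 windows and in 0.561% of all windows. The stretches below run 5′ to 3′ on the gene's strand with the core or its reverse complement in capitals. They lie at chr1:93909436-93909484 for GCLM, chr12:104215660-104215708 and chr12:104286910-104286958 for the windows of TXNRD1, and chr19:10502774-10502822 for KEAP1. GCLM and KEAP1 lie on the minus strand and TXNRD1 on the plus strand.
GCLM: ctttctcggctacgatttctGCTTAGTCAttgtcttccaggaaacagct
TXNRD1, first window: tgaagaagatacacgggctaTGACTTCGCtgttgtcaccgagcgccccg
TXNRD1, second window: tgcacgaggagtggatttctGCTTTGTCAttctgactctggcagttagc
KEAP1: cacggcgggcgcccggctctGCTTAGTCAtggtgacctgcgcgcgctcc

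These cores lie 34 to 26 bases before the start of GCLM, 99 to 91 and 102 to 94 bases before the starts of TXNRD1, and 31 to 23 bases before the start of KEAP1. A further core of KEAP1 lies 54 to 46 bases before the same start, and 1 of TXNRD1 crosses the first start. No core was found in the windows of NFE2L2, NQO1, GCLC or SRXN1, which says only that these letters are not in those windows.

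Deposited intensities were quantile-normalized, given a floor of 64 and taken to log2, and a level below means this log2 value. Probes bind their targets unequally, so levels are compared between arrays for 1 gene and not between genes. Genes were tested for size of difference when their mean level over the 4 arrays exceeded 9.72, the median of all probes, and a gene was called when 2 arrays differed at least 2-fold (a log2 difference of 1). Of the 9 members 8 passed this level filter and NQO1 did not. No member was called against NC on any array. Among all 10668 tested genes, 4.79% were called with the mimic, 2.96% with siPVT1-1 and 2.53% with siPVT1-2. At 1.5-fold, the members past the threshold were 2 of 8 with the mimic (HMOX1 and TXNRD1, both lower), 4 with siPVT1-1 (NFE2L2, GCLC and TXNRD1 lower, HMOX1 higher) and 4 with siPVT1-2 (GCLM, TXNRD1 and SRXN1 lower, GCLC higher). At that threshold 18.9%, 13.2% and 13.3% of all tested genes passed in the same order.

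Most tested members lay below NC by quantile normalization, though not the same ones on each array. They were 6 of 8 with the mimic, 5 with siPVT1-1 and 7 with siPVT1-2. Among all 10668 tested genes, 5542, 5158 and 5469 lay below NC in that order. With siPVT1-2, KEAP1 and GSR turned above NC with median centring (0.02 and 0.1). The median log2 difference from NC of the 8 tested members was -0.47 with the mimic, -0.27 with siPVT1-1 and -0.43 with siPVT1-2, where all tested genes had medians of -0.02, 0.01 and -0.01. With the arrays centred on their medians instead, the members' medians were -0.22, -0.15 and -0.21, and those of all tested genes moved to 0.108, 0.114 and 0.157. The NC array held the highest of the 4 levels for 4 of the 8 tested members, NFE2L2, GCLM, TXNRD1 and SRXN1. It also did so for these 4 with deposited values, median centring and cyclic loess. The deposited values had their highest median on the NC array, which by itself favours NC as the highest array. By quantile normalization the NC array was highest for 31.0% of all tested genes, and that share is not given for the other scalings. A lower level in every cell and a larger share of cells with little transcript cannot be told apart in RNA from a whole culture.

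**Figure D1:**
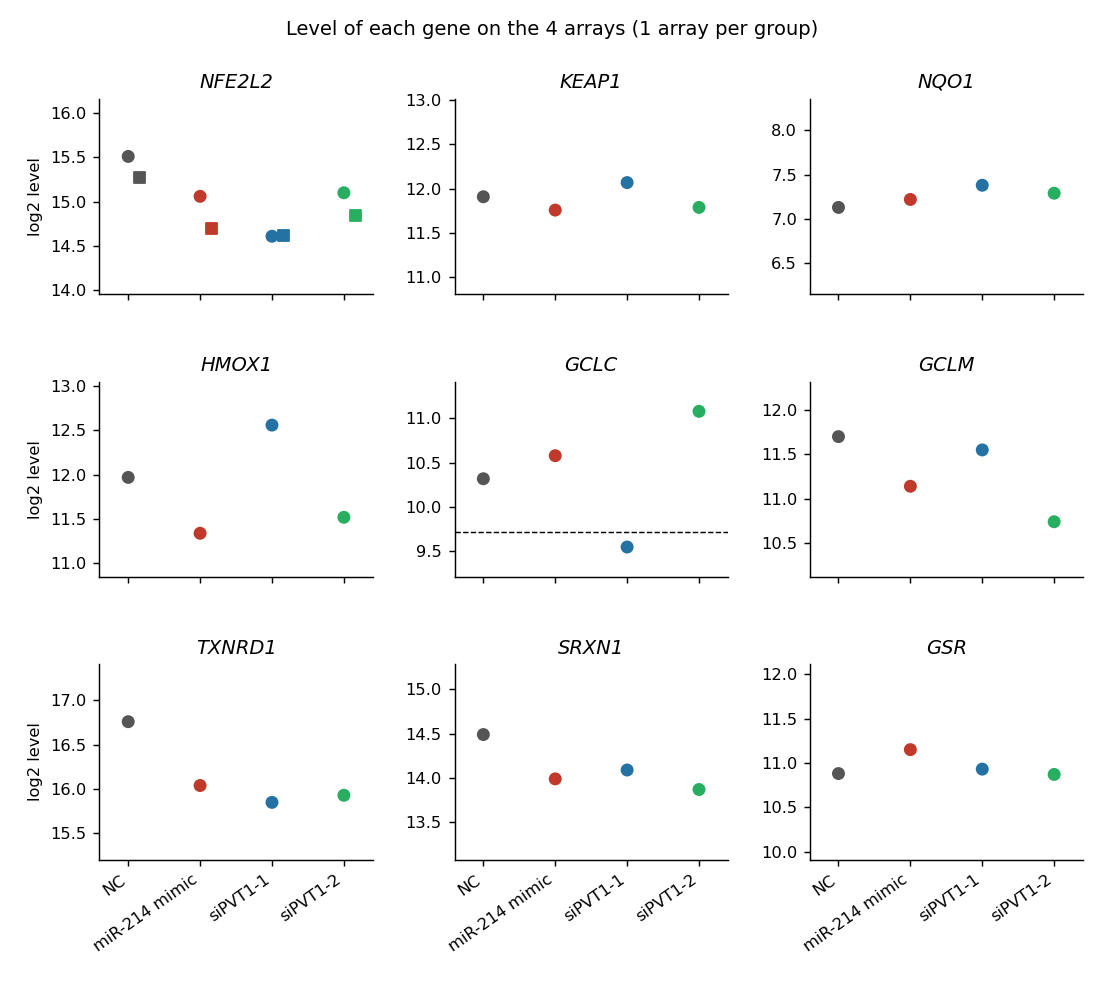
Log2 level (quantile-normalized intensity) of each gene on the NC, miR-214 mimic, siPVT1-1 and siPVT1-2 arrays, 1 point per array; squares are the second probe of NFE2L2, each axis spans the same log2 range, and the dashed line in the GCLC panel is the level filter of 9.72. TXNRD1 is highest on the NC array (16.76) and between 15.85 and 16.04 on the others, while HMOX1 is highest and GCLC lowest on the siPVT1-1 array.

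The regulator gene NFE2L2 had 2 probes. Its brighter probe stood at 15.51 on the NC array, 15.06 with the mimic, 14.61 with siPVT1-1 and 15.1 with siPVT1-2. The second probe stood at 15.27, 14.7, 14.62 and 14.84 in the same order. Both probes were highest on the NC array and lowest on the siPVT1-1 array. The differences from NC were -0.46, -0.9 and -0.42 by the brighter probe and -0.56, -0.65 and -0.42 by the second, and neither probe reached 2-fold. With median centring the brighter probe gave -0.18, -0.69 and -0.13. For genes with 2 probes above the filter, 2214 in number, the median gap between both probes' differences from NC was 0.33 with the mimic, 0.18 with siPVT1-1 and 0.23 with siPVT1-2. The siPVT1-1 difference of NFE2L2 by its brighter probe was as low or lower in 2.32% of tested genes. KEAP1, the adaptor of the ubiquitin ligase that degrades NRF2, stood at 11.91 on the NC array, 11.76 with the mimic, 12.07 with siPVT1-1 and 11.79 with siPVT1-2. Its differences from NC, -0.15, 0.16 and -0.12, lay well within 1.5-fold, and the siPVT1-2 value turned to 0.02 with median centring.

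Glutathione is made in a first, rate-limiting step by glutamate-cysteine ligase, whose catalytic subunit is GCLC and whose modifier subunit is GCLM. GCLC stood at 10.32 on the NC array, 10.58 with the mimic, 9.55 with siPVT1-1 and 11.08 with siPVT1-2. The siRNA arrays thus lay on opposite sides of NC, by -0.76 and 0.76. The siPVT1-1 level lies under the filter level of 9.72, so the size of its differences is uncertain. GCLM stood at 11.7 on the NC array, 11.14 with the mimic, 11.55 with siPVT1-1 and 10.74 with siPVT1-2. Its order over the siRNA arrays was the reverse of that of GCLC. The GCLM difference from NC was -0.56 with the mimic, -0.15 with siPVT1-1 and -0.96 with siPVT1-2, and 1.38% of tested genes were as low or lower on the siPVT1-2 array. With values as deposited this difference was -1.08 and passed 2-fold. GSR, glutathione reductase, returns oxidised glutathione to its reduced form. It stood at 10.88 on the NC array, 11.15 with the mimic, 10.93 with siPVT1-1 and 10.87 with siPVT1-2, a range of 0.29 over the 4 arrays. Its siRNA differences from NC, 0.05 and -0.02, took either sign depending on the scaling, with -0.05 for siPVT1-1 as deposited and 0.1 for siPVT1-2 with median centring.

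Both genes of the thioredoxin branch were highest on the NC array. TXNRD1, cytosolic thioredoxin reductase, stood at 16.76 on the NC array, 16.04 with the mimic, 15.85 with siPVT1-1 and 15.93 with siPVT1-2. The 3 treated arrays lay close together and all below NC, by 1.64-fold, 1.87-fold and 1.77-fold. These log2 differences were -0.72, -0.91 and -0.82, and 6.16%, 2.3% and 2.26% of tested genes were as low or lower in the respective comparison. With median centring they were -0.38, -0.6 and -0.49. SRXN1, sulfiredoxin, which repairs over-oxidised peroxiredoxins, stood at 14.49 on the NC array, 13.99 with the mimic, 14.09 with siPVT1-1 and 13.87 with siPVT1-2. Its differences from NC of -0.49, -0.4 and -0.62 were smaller than those of TXNRD1 on each array. Among the treated arrays themselves, which do not involve NC, TXNRD1 and SRXN1 differed by at most 0.22 in any pair.

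The heme enzyme HMOX1 took opposite sides of NC on the siRNA arrays, and the quinone enzyme NQO1 could hardly be read. HMOX1, heme oxygenase, which breaks heme down to biliverdin, iron and carbon monoxide, stood at 11.97 on the NC array, 11.34 with the mimic, 12.56 with siPVT1-1 and 11.52 with siPVT1-2. It was above NC on the siPVT1-1 array by 0.59 and below it with the mimic and siPVT1-2, by -0.62 and -0.45. NQO1, a quinone reductase often read as a marker of NRF2 activity, gave dim signal on all 4 arrays. Its deposited intensities were 162 on the NC array, 145 with the mimic, 164 with siPVT1-1 and 134 with siPVT1-2, and its log2 levels of 7.13 to 7.38 lay far under the filter level. Its differences from NC, 0.09, 0.25 and 0.16, are therefore uncertain, and those with the mimic and siPVT1-2 turned to -0.16 and -0.28 with values as deposited. With 1 probe on the array, a low transcript level and a weak probe cannot be told apart.

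**Figure D2:**
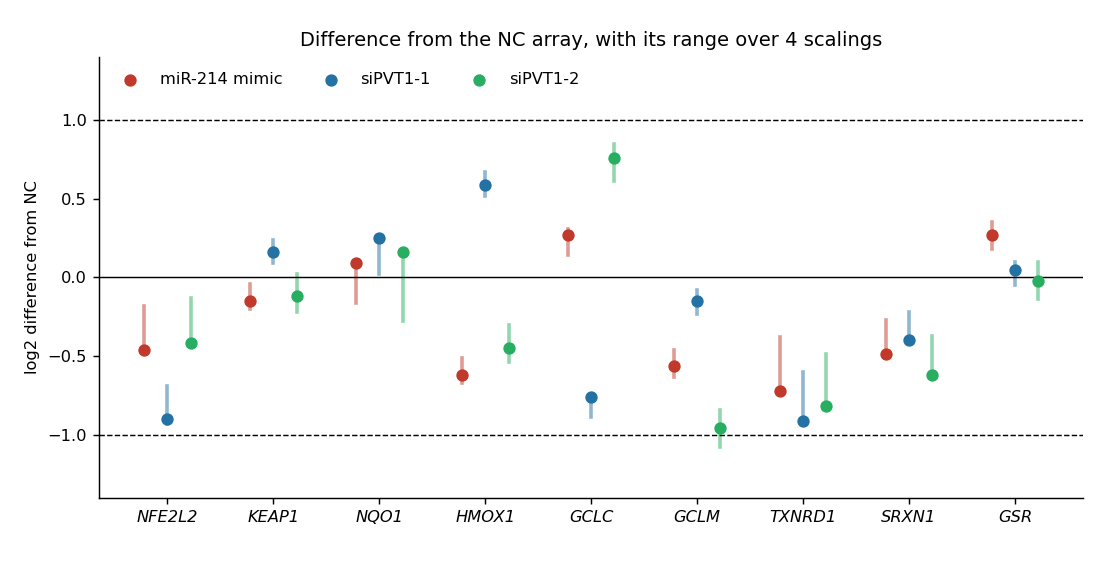
Log2 difference of each gene from the NC array for the miR-214 mimic, siPVT1-1 and siPVT1-2 arrays; points are quantile-normalized values, bars span the values under 4 scalings (quantile, as deposited, median centring and cyclic loess) and are no error of replicates, and dashed lines mark 2-fold. All points lie within 2-fold; the bar of GCLM with siPVT1-2 reaches -1.08.

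The siRNA arrays were next set against each other, a comparison that leaves the NC array out and asks how far 2 duplexes against the same RNA agree. Of the 8 tested members 2 were called, HMOX1 and GCLC, where 0.497% of all tested genes (53 of 10668) were called. HMOX1 was 2.05-fold higher with siPVT1-1 than with siPVT1-2, a log2 difference of 1.04, which 0.0844% of tested genes matched or exceeded. With median centring the HMOX1 difference was 0.97 and missed the 2-fold rule. GCLC was 2.88-fold lower with siPVT1-1, a log2 difference of -1.53, and 0.187% of tested genes were as low or lower; its siPVT1-1 spot is the dim one described above. GCLM, at 0.81, was not called, and 0.225% of tested genes were as high or higher. HMOX1 and GCLM thus lay above 0 and GCLC below 0 in the same comparison. The remaining tested members lay between -0.49 (NFE2L2) and 0.28 (KEAP1).

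**Figure D3:**
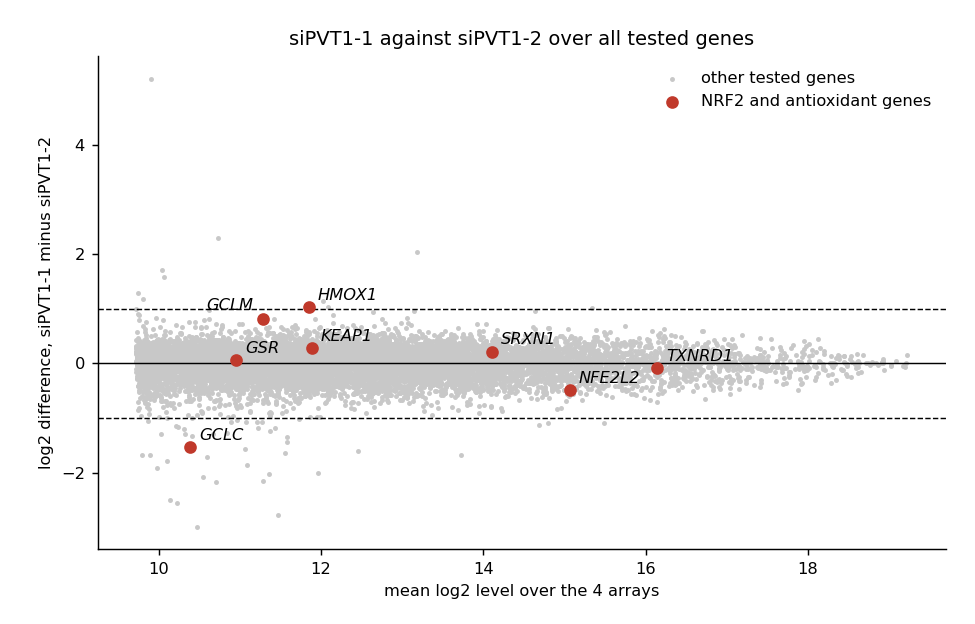
Log2 difference siPVT1-1 minus siPVT1-2 of the 10668 tested genes against their mean log2 level over the 4 arrays; dashed lines mark 2-fold. HMOX1 (1.04) and GCLC (-1.53) lie outside the lines, and TXNRD1 (-0.08) and GSR (0.07) lie near 0.

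The miR-214 mimic array was also set against each siRNA array. Against siPVT1-1, 2 of 8 members were called, HMOX1 2.32-fold lower (-1.21) and GCLC 2.04-fold higher (1.03) with the mimic, where 3.02% of tested genes were called. Against siPVT1-2 no member was called, where 1.67% of tested genes were, and the members lay between -0.5 (GCLC) and 0.4 (GCLM). HMOX1 and GCLC therefore passed 2-fold only in the 2 pairs that contain the siPVT1-1 array without NC, and these pairs share that array.

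The genes whose levels over the 4 arrays were most like those of the 3 members with the widest range were found by the Euclidean distance between levels centred on each gene's mean, over 4 arrays. For GCLC (range 1.53) they were GPR137, ST6GALNAC2, GLIS1, TWSG1 and KU-MEL-3, at distances of 0.3 to 0.4. For HMOX1 (range 1.21) they were VAMP8, POLR3G, STYXL1, MRPL34 and RPIA, at 0.23 to 0.3. For GCLM (range 0.96) they were CD5L, MLH3, FXYD7, C3orf36 and TBXA2R, at 0.12 to 0.22. No member was among them. These distances rest on 4 points per gene.

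BACH1, a repressor that competes with NRF2 at antioxidant response elements and is known to silence HMOX1, was looked at after its values were seen. It had 3 probes. The brightest stood at 11.2 on the NC array, 11.66 with the mimic, 10.89 with siPVT1-1 and 11.57 with siPVT1-2. The second stood at 10.79, 11.4, 10.62 and 11.29 in that order. Both were lowest on the siPVT1-1 array, where HMOX1 was highest, and both differed by -0.68 between siPVT1-1 and siPVT1-2, short of 2-fold. The third probe, under the filter, stood at 8.0, 9.38, 8.68 and 9.13 and was lowest on the NC array. Whether BACH1 bears on HMOX1 or GCLC was not tested.

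Other genes of the pathway were taken from 8 lists by function that leave the members out. The lists were drawn up with earlier results of these data known. Their counts beside the shares of all tested genes are therefore a description and no test. Of 114 genes 106 had a probe and 94 passed the level filter. On the miR-214 mimic array 1 was called higher and 7 lower, where 1.95% of all tested genes were higher and 2.84% lower. With siPVT1-1 it was 0 higher and 8 lower, where 1.25% and 1.72% of tested genes were. With siPVT1-2 it was 1 higher and 5 lower, where 1.33% and 1.2% were. The list medians of the 94 genes were -0.14, -0.09 and -0.06. In all, 12 of the 94 genes were called against NC on at least 1 array, and 5 of them, SLC7A11, CBS, CHAC1, TXNIP and SESN2, were lower by 2-fold on all 3. Of all tested genes 6.87% were called on at least 1 array and 0.609% were lower by 2-fold on all 3, and the 3 comparisons share the NC array. With median centring only SLC7A11 and CHAC1 of these 5 passed on all 3 arrays, where 0.384% of tested genes did, and the mimic count was 2 higher and 3 lower.

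Supply and turnover of glutathione held the most genes called lower, 3 of 11 tested with the mimic, 4 with siPVT1-1 and 3 with siPVT1-2, and no member of the list was called higher. Among all tested genes 2.84%, 1.72% and 1.2% were called lower in the same order. Because the list was drawn up with earlier results known, these counts are no test. SLC7A11, the cystine transporter that feeds glutathione synthesis, stood at 14.32 on the NC array, 12.76 with the mimic, 12.2 with siPVT1-1 and 12.16 with siPVT1-2; a second probe near the floor of 6.0 gave -0.26 on each. CBS, the first enzyme of the path from homocysteine to cysteine, stood at 14.2, 13.16, 12.24 and 12.45 in that order, which is 2.07-fold, 3.91-fold and 3.38-fold below NC. CTH, the second enzyme of that path, stood at 12.61, 12.14, 11.48 and 11.63 and was called with siPVT1-1 (-1.13), at -0.98 with siPVT1-2 and -0.46 with the mimic. CHAC1, which degrades glutathione, stood at 12.15, 10.98, 8.48 and 10.56, and its siPVT1-1 level lies under the filter. SLC7A11 is a target of NRF2, and SLC7A11, CBS, CTH and CHAC1 are also known from the amino acid stress response driven by ATF4. GSS, which completes glutathione, lay at -0.11, -0.11 and 0.05 from NC.

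**Figure D4:**
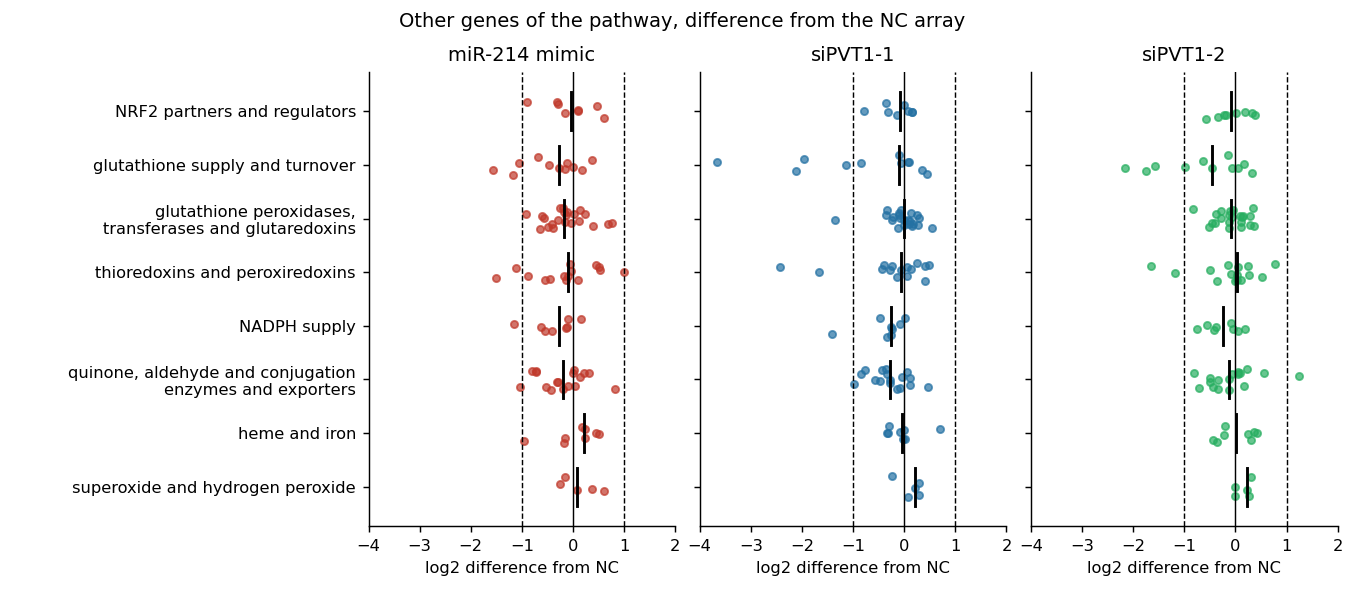
Log2 difference from the NC array of each tested gene (point) of 8 pathway lists, members left out, on the miR-214 mimic, siPVT1-1 and siPVT1-2 arrays; black bars are list medians, vertical scatter is for display and dashed lines mark 2-fold. Glutathione supply and turnover has 3, 4 and 3 genes past the lower line, and heme and iron has none past either line.

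Of 15 other thioredoxin and peroxiredoxin genes tested, 1 was called higher and 2 lower with the mimic, and 0 higher and 2 lower with each siRNA. Among all tested genes, 1.95% were called higher and 2.84% lower with the mimic. These shares were 1.25% and 1.72% with siPVT1-1, and 1.33% and 1.2% with siPVT1-2. TXNIP, which binds and inhibits thioredoxin, stood at 15.18 on the NC array, 13.66 with the mimic, 13.52 with siPVT1-1 and 14.0 with siPVT1-2, and was called on all 3. SESN2, a stress-induced sestrin, was likewise lower on all 3, by -1.11, -2.43 and -1.66. PRDX4, the peroxiredoxin of the endoplasmic reticulum, was the 1 gene called higher with the mimic, at 1.0 by its brighter and 1.12 by its second probe; the brighter gave 0.96 with cyclic loess. The thioredoxin gene TXN itself, the substrate of TXNRD1, lay at -0.09, -0.06 and -0.09 from NC by its brighter probe. Its second probe, also above the filter, lay at 0.41, 0.24 and 0.06. Of 8 tested NADPH genes, PGLS of the pentose phosphate path was called lower with the mimic (-1.16; -0.92 with median centring) and IDH1, a cytosolic dehydrogenase that makes NADPH, with siPVT1-1 (-1.41; second probe -1.14). The second IDH1 probe also passed 2-fold with siPVT1-2 (-1.14), where the brighter gave -0.75.

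Among enzymes that use glutathione or clear quinones and aldehydes, calls against NC were few, as among all tested genes. Of all tested genes 4.79% were called with the mimic, 2.96% with siPVT1-1 and 2.53% with siPVT1-2. Of 22 tested peroxidases, transferases and glutaredoxins, 1 was called, GPX8 with siPVT1-1 (-1.35; -0.92 with the mimic and -0.83 with siPVT1-2), a peroxidase of the endoplasmic reticulum. Of 17 tested quinone, aldehyde and conjugation genes and exporters, ABCC3, an exporter of glucuronides, was called lower with the mimic (-1.03; second probe -0.94), but not with median centring (-0.8) or as deposited (-0.96). AKR1B10, an aldo-keto reductase that NRF2 is known to induce, stood at 10.06 on the NC array, 10.28 with the mimic, 9.98 with siPVT1-1 and 11.31 with siPVT1-2. It was called higher with siPVT1-2 alone (1.24) and, like GCLC, was highest on that array. Of the 8 tested members, the other 7 lay below NC on that array by quantile normalization, and GCLM and SRXN1 were lowest there. Of 8 tested regulators, 8 heme and iron genes and 5 superoxide and hydrogen peroxide genes, 0 were called against NC, with list medians between -0.09 and 0.23.

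The arrays as a whole limit these readings. Medians of the deposited intensities were 926.9 on the NC array, 828.1 with the mimic, 835.9 with siPVT1-1 and 784.1 with siPVT1-2. By quantile normalization, the called genes split into 208 above and 303 below NC on the mimic array, 133 and 183 for siPVT1-1, and 142 and 128 for siPVT1-2. With median centring these splits were 351 and 203, 184 and 146, and 277 and 78, and with values as deposited 94 and 215 for siPVT1-1 and 95 and 161 for siPVT1-2. The label HepG2 was set against markers: 5 of 20 hepatocyte genes passed the level filter, and their median stood at percentile 27.5 of named genes by signal. ALB lay between 6.7 and 6.94 and AFP between 8.18 and 8.39, both under the filter on every array. Of markers of other cells, 5 of 12 fibroblast, 3 of 9 endothelial, 2 of 9 blood cell and 5 of 9 other epithelial genes passed, none of them called against NC. Over the 4 arrays the median marker level ranged from 8.15 to 8.43 for hepatocytes, 9.19 to 9.45 for fibroblasts, 9.43 to 9.7 for endothelium, 7.76 to 9.48 for blood cells and 9.96 to 10.3 for other epithelia. The identity of the cells was not tested further, and PVT1 itself was not analysed here, so the arrays give no check of its knockdown.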

How the data were processed

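The authors deposited linear intensities of 28264 probes on 4 arrays, background already subtracted, as the values below 0 (74 to 131 probes per array) show; scanner and software are not given in the sources used here. Quantile normalization (limma 3.58.1, R 4.3.3) was followed by a floor of 64 and log2. Probes were named from the platform annotation, with symbols updated by Entrez identifier to RefSeq (GRCh38.p14). Of these, 25893 probes had 1 symbol, all matched. The other 2371 had no symbol or more than 1 and were not assigned to a gene. A gene took its brightest probe by mean level. Genes above the median probe level (9.72) were tested by the 2-fold rule in 6 comparisons; a spot at the floor was not called. Alternatives were values as deposited, median centring, cyclic loess, a floor of 16, other level filters, averaged probes, and 1.5-fold and 3-fold rules. No p-value was computed, since a group is 1 array. The calling steps were tested on simulated data. Members and lists were chosen with earlier results of these data known. Named genes were all members, pathway genes called against NC, and the 5 nearest genes of 3 members. BACH1, TXN and GSS were added after their values were seen, and the markers VIM, LUM and KRT7 for their high signal.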

Additional observations from a re-analysis of the deposited data

Results flagged for a closer look

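HMOX1 and GCLC drew attention because their differences from NC had opposite signs on 2 arrays that were also at least 2-fold apart. For HMOX1, the siPVT1-1 minus siPVT1-2 difference was 1.04 and the miR-214 mimic minus siPVT1-1 difference was -1.21 on the log2 scale. For GCLC the same differences were -1.53 and 1.03. With 1 array per group these differences were not tested, and both genes rest on 1 probe each.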

How the results depend on the processing

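No paired analysis was possible because each group is 1 array. Of 162 member differences recomputed under the 3 other scalings, 0 called ones changed sign; 13 uncalled ones did, all of NFE2L2, KEAP1, NQO1 or GSR. Of 162 recomputed counts, 112 stayed within 1.5 times their value; the others follow, and where the filter or the fold threshold was altered, that construction accounts for them.

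With values as deposited, 1 member (GCLM) passed 2-fold for siPVT1-2 minus NC. With median centring, 1 member was called for siPVT1-1 minus siPVT1-2, since HMOX1 stood at 0.97, and 5 pathway genes for the mimic minus NC in place of 8; the cause was not tested.

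Without a level filter, the genes called among all 19090 numbered 889 for the mimic, 599 for siPVT1-1 and 564 for siPVT1-2 against NC. They numbered 203 between the siRNAs, and 669 and 515 for the mimic against siPVT1-1 and siPVT1-2. For the last pair 2 pathway genes were called in place of 1. With a stricter filter, at the 75th percentile of probes, these counts were 230, 148, 123, 10, 112 and 35 among 5646 tested genes. This filter kept only 3 members, NFE2L2, TXNRD1 and SRXN1. It left out HMOX1 and GCLC, so that 0 members were called between the siRNAs and for the mimic against siPVT1-1. Of 74 pathway genes tested under this filter, 0 were called between the siRNAs, 1 for the mimic against siPVT1-1 and 0 against siPVT1-2.

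At 1.5-fold, members called against NC were 2 of 8 with the mimic, 4 with siPVT1-1 and 4 with siPVT1-2, where 18.9%, 13.2% and 13.3% of all 10668 tested genes passed. Pathway genes numbered 24, 14 and 13 against NC, 5 between the siRNAs, and 20 and 4 for the mimic against siPVT1-1 and siPVT1-2. All genes in these comparisons numbered 2014, 1405, 1416, 354, 1661 and 578. At 3-fold, 0 members were called between the siRNAs or for the mimic against siPVT1-1. Pathway genes then numbered 0, 5 and 3 against NC, 1 between the siRNAs, and 1 and 0 for the mimic against each siRNA, and all genes 83, 73, 59, 21, 68 and 54.

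Signal under the filter level limits NQO1 on all 4 arrays, and GCLC and CHAC1 on the siPVT1-1 array.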
